A study of Verbena bonariensis with 6 samples.

Results

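The SQUAMOSA promoter-binding (SBP) factors were described in leaves of Verbena bonariensis after cold. All clusters that the deposited table assigns to the SBP family were taken, which gave 119 of 9740 clusters, a cluster being a transcript model numbered by the authors. They were described by the number in the name of their best protein match in another species, singly and after summing the counts of clusters with the same match. The 119 clusters fell on 27 best matches, with 1 cluster that had none, and on 13 numbers. A predicted SBP domain was annotated in 115 of the 119 clusters, which is no separate check of the label if the family was assigned by that domain. The best match was a sesame protein for 89 clusters, a monkeyflower (Erythranthe guttatus) protein for 15 and a Salvia miltiorrhiza protein for 6.

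SBP factors are found only in plants and bind DNA with a zinc-holding domain that recognises a GTAC core. The first members, SBP1 and SBP2, were found in snapdragon as proteins that bind the promoter of the floral gene SQUAMOSA, and the related genes of other plants are called SPL, for SQUAMOSA promoter-binding-like. In Arabidopsis many SPL messengers are cut or silenced by the microRNA miR156, which falls as the plant ages, so that SPL factors time the change from juvenile to adult leaves and to flowering. Other members escape miR156, among them SPL7, which switches on copper uptake genes, and the large SPL1, SPL12 and SPL14 proteins. The number of a best match follows the naming of its own species and need not name the Arabidopsis counterpart.

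Leaves were sampled from 3-month-old seedlings of the cultivar Finesse, which were raised in a greenhouse with 16 h of light. The cold plants first spent 24 h at 4°C, followed directly by 4 h of frost at -4°C, and the control plants were left as they were. Each group had 3 libraries, described as biological replicates. Growth was at 25°C by day and 16°C by night by the labels, and other growth temperatures are given in the paper. No transgenic or mutant plants were used here, the RNA was of whole leaves, and the 2 cold steps cannot be told apart.

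The table of regulators held 722556 to 791041 estimated counts in a cold library and 991180 to 1213366 in a control library, of which SBP clusters took 1.23% to 1.24% in cold and 1.41% to 1.44% in control. The cold libraries were thus the shallower ones. Normalised CPM are counts scaled to the reads on the features tested in each library, adjusted by TMM factors. The single best match named as a CBF cold-response factor was at 264 to 318 normalised CPM in cold and 0.921 to 3.17 in control. Of 15 best matches with the names of leaf factors (GLK, YABBY, FAMA, SPEECHLESS), 10 were tested. Of these 7 were higher and 2 lower in cold (34.6% and 37.7% of all best matches tested in the table). The summed level of the 15 was 3642 to 3749 CPM in cold and 2472 to 2579 in control. Flower markers had 2 best matches with a summed level of 2.79 to 6.09 CPM in cold and 25.8 to 33.3 in control, the petal factor deficiens being at 0 in cold replicates 2 and 3. No best match bore the name of a root marker. The part of these differences in the results below was not tested, and in bulk leaves fewer cells of a type and less RNA per cell cannot be told apart.

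Per length, the SPL14 match had the highest summed FPKM of the SBP matches in both groups, in cold only with 6 long clusters that also carry a phytoene synthase domain (below), and the order below it changed in cold. FPKM, which scales fragments to cluster length and library reads, was summed over the clusters of a best match. SPL14 (best match XP_011083361.1) had 82.5 ± 4.87 FPKM in cold and 127.6 ± 2.80 in control (SD, n = 3 each, as for all FPKM here). Its 9 clusters without that domain had 30.1 ± 1.79 FPKM in cold, less than SBP2, and 71.1 ± 2.70 in control. In cold the next places were held by SBP2 (69.0 ± 2.85 FPKM) and the Salvia SPL3 match (27.7 ± 2.23 FPKM). In control they were held by the monkeyflower SPL1 match (50.2 ± 1.53 FPKM) and a sesame SPL1 match (42.8 ± 0.18 FPKM). SBP2 thus stood at place 2 in cold and place 10 in control. Some neighbours in this order did not differ beyond their spread: SBP1 (20.8 ± 0.72 FPKM) and SPL6 (20.1 ± 1.24 FPKM) in cold, and SBP1 (6.26 ± 0.32 FPKM) and SBP2 (5.81 ± 1.5 FPKM) in control. The SBP2 clusters were only 418 to 989 bases long, and FPKM of short clusters depends strongly on the length used.

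**Figure D1:**
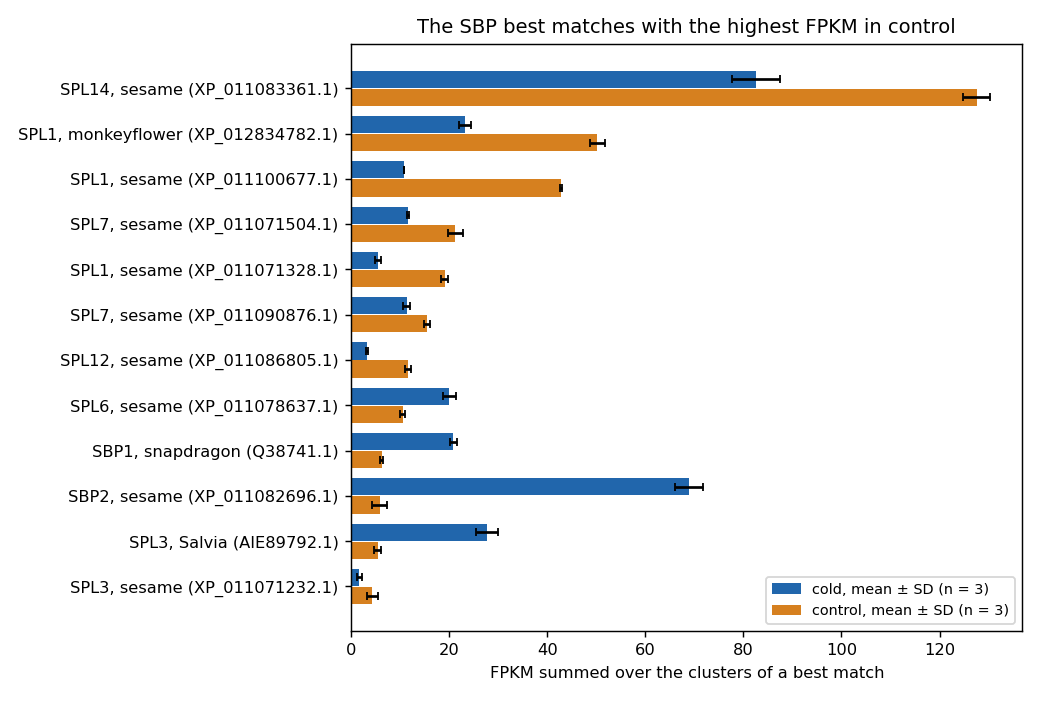
FPKM summed over the clusters of a best match (x axis, linear) for the 12 SBP best matches with the highest FPKM in control, as mean and SD of 3 cold libraries (blue, upper bar) and 3 control libraries (orange, lower bar). SPL14 led in both groups, in cold only with the clusters that carry a phytoene synthase domain (30.1 FPKM without them), and SBP2 reached 69.0 FPKM in cold against 5.81 in control.

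After summing by best match, 22 of the 28 entries (27 matches and the cluster without one) had enough reads to be tested, and 5 were higher and 9 lower in cold. Those that rose were SBP2, the snapdragon SBP1, a Salvia SPL3, a sesame SPL6 and a Salvia SPL1. Those that fell were 3 of the 4 SPL1 matches, SPL12, SPL17, SPL8, a sesame SPL3 and 2 SPL7 matches. The 5 are 22.7% and the 9 are 40.9% of the 22 tested, while 34.6% of all 2296 best matches tested in the table were higher and 37.7% lower. The median log2 fold change was -0.16 for the SBP matches and -0.076 for all matches. Entries were called where the p of the quasi-likelihood test of edgeR, adjusted by Benjamini-Hochberg over all entries tested, was under 0.05. Of single SBP clusters 63 were tested, 12 were higher (19.0%) and 17 lower (27.0%), while 21.9% of all 5004 clusters tested were higher and 23.6% lower. At both levels the share of SBP members that were higher lay below that of the table and the share that were lower lay slightly above it, which sets the family little apart.

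**Figure D2:**
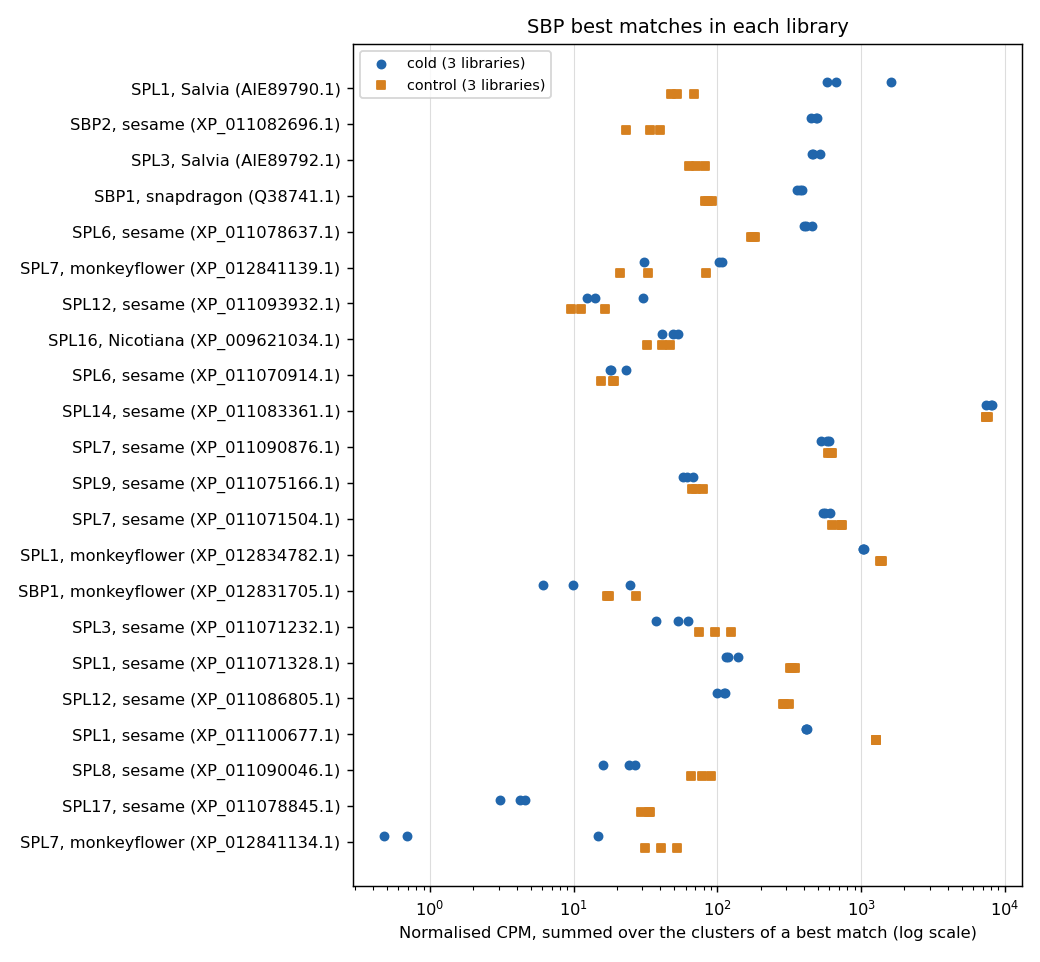
Normalised CPM in each library (x axis, log scale) of the 22 SBP best matches tested, with 3 cold libraries (blue circles) above 3 control libraries (orange squares), ordered by fold change. The 5 matches at the top were called higher in cold, 22.7% of those drawn against 34.6% of all matches tested. The lowest match had 1 cold library at 14.7 CPM and the others below 1.

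SBP2, SBP1 and a Salvia SPL3 match, whose nearest curated proteins are the snapdragon founders SBP1 and SBP2, all rose. SBP2 (best match XP_011082696.1) had 494, 448 and 482 normalised CPM in cold replicates 1, 2 and 3, against 23.0, 39.8 and 34.0 in control replicates 1, 2 and 3. The groups lay far apart. The log2 fold change was 3.85 (SE 0.16, edgeR adjusted p = 1.82e-07). All 4 of its tested clusters rose, where 21.9% of all clusters tested were higher, though clusters of the same match are not separate evidence. Their log2 fold changes ran from 2.11 to 4.88, with edgeR adjusted p-values up to 0.00547. The most abundant of these in cold, Cluster-14918.193979 of 631 bases, had 202, 169 and 179 CPM in cold and 5.53, 6.70 and 6.07 in control. The other 4 of its 8 clusters were not tested, and 3 of them had no read in any library.

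SBP1 and the Salvia SPL3 match both have snapdragon SBP1 as their nearest curated protein. SBP1 (best match Q38741.1, the snapdragon protein itself, 1 cluster of 1133 bases) had 378, 388 and 360 CPM in cold and 85.6, 90.9 and 82.3 in control. Its log2 fold change was 2.12 (SE 0.09, edgeR adjusted p = 2.35e-07). Its replicates were close together and no control library came near a cold one. The Salvia SPL3 match (AIE89792.1) had 463, 453 and 520 CPM in cold and 81.5, 71.1 and 63.2 in control, a log2 fold change of 2.74 (SE 0.11, edgeR adjusted p = 1.82e-07). Both of its clusters rose, Cluster-14918.31635 by 2.80 and Cluster-14918.220296 by 2.24 on the log2 scale (edgeR adjusted p = 0.000203 and 0.000532). In Arabidopsis SPL3 is a small miR156 target that promotes flowering. A second SBP1 entry, matched to a monkeyflower protein (XP_012831705.1) but nearest to rice SPL8 among curated proteins, had 6.08, 9.86 and 24.5 CPM in cold and 17.05, 17.5 and 27.1 in control. Its groups overlapped and it was not called (log2 fold change -0.59, edgeR adjusted p = 0.38).

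SPL6, a miR156 target with a part in innate immunity in Arabidopsis, rose less. The sesame match XP_011078637.1 had 415, 457 and 402 CPM in cold and 183, 171 and 176 in control, a log2 fold change of 1.27 (SE 0.08, edgeR adjusted p = 2.66e-06). Of its 4 tested clusters 1 was called, Cluster-14918.36782, at 235, 290 and 265 CPM in cold and 78.7, 64.4 and 90.7 in control (log2 fold change 1.75, edgeR adjusted p = 0.000955). This cluster took 63.7 ± 5.07% of the reads of the match in cold and 41.4 ± 6.55% in control (SD, n = 3 each). The other SPL6 match, XP_011070914.1, stayed between 15.4 and 23.0 CPM in all libraries and its groups overlapped (log2 fold change 0.15, SE 0.37).

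SPL1 and SPL12 are large proteins that in Arabidopsis act together in heat tolerance of the inflorescence and are not miR156 targets, and 4 of the 6 matches tested with these numbers were lower in cold, where 37.7% of all matches were. The sesame SPL1 match XP_011100677.1 had 411, 419 and 415 CPM in cold and 1260, 1264 and 1269 in control. The replicates of a group were nearly equal, and the log2 fold change of -1.61 had the smallest adjusted p of the SBP matches (SE 0.04, edgeR adjusted p = 1.64e-08). Nearly all of it lay in Cluster-14918.128030, with 86.5 ± 3.55% of the reads of the match in cold and 98.6 ± 1.18% in control (log2 fold change -1.93, edgeR adjusted p = 7.48e-06). The second sesame SPL1 match, XP_011071328.1, had 114, 140 and 119 CPM in cold and 321, 345 and 329 in control (log2 fold change -1.42, SE 0.10, edgeR adjusted p = 5.82e-06). Of its clusters, Cluster-14918.103914 and Cluster-14918.98512 were lower, by log2 fold changes of -1.96 and -1.69. The sesame SPL12 match XP_011086805.1 had 111, 113 and 99.1 CPM in cold and 313, 291 and 286 in control (log2 fold change -1.46, SE 0.10, edgeR adjusted p = 4.66e-06). Its nearest curated protein is rice SPL12, while Arabidopsis SPL12 is nearest to the leading clusters of both sesame SPL1 matches. In none of these 3 matches did the groups overlap, and the share of all matches without overlap was not counted. The other SPL12 match, XP_011093932.1, had 30.5, 12.3 and 13.96 CPM in cold and 16.6, 11.3 and 9.50 in control, and overlapped (log2 fold change 0.60, SE 0.52).

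The monkeyflower SPL1 match XP_012834782.1 fell less as a sum, and its clusters did not move alike. Its summed level was 1033, 1026 and 1054 CPM in cold and 1368, 1363 and 1400 in control, a log2 fold change of -0.41 (SE 0.04, edgeR adjusted p = 2.53e-05). The main transcript model, Cluster-14918.123763 with 2703 bases, had 676, 743 and 815 CPM in cold and 726, 726 and 705 in control and was not called. It held 73.7 ± 6.22% of the reads of the match in cold and 49.0 ± 1.73% in control. Of the other models 3 fell. Cluster-14918.144667 fell by 2.13 and Cluster-14918.139371 by 1.64 on the log2 scale (edgeR adjusted p = 0.000399 and 0.013), the second losing its call without cold replicate 3 (adjusted p = 0.053). Cluster-14918.123767 had no read in any cold library and 29.6, 31.9 and 47.5 CPM in control. Against a floor of 3 counts over the cold group it was at least 25.2-fold lower, and at least 16.3-fold to 27.5-fold with single libraries left out.

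The fourth SPL1 match, a Salvia protein (AIE89790.1), went the other way, and its clusters are also annotated as another protein. It had 579, 1605 and 669 CPM in cold and 68.6, 47.4 and 51.9 in control, a log2 fold change of 4.09 (SE 0.47, edgeR adjusted p = 9.71e-05). Cold replicate 2 stood well above the other cold libraries, and with single libraries left out the log2 fold change ran from 3.49 to 4.36. Both clusters rose, Cluster-14918.103929 by 3.85 and Cluster-14918.111038 by 4.18 on the log2 scale. Both also carry a phytoene synthase domain beside the SBP domain, and their nearest curated protein is phytoene synthase 1 of tomato, the enzyme of the first committed step of carotenoid synthesis. In Cluster-14918.103929, of 6059 bases, the predicted coding stretches run on the reverse strand from 6058 to 4766, from 4151 to 2040 and from 1986 to 853.

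Such double annotation was found in 8 SBP clusters, all of 6041 to 6435 bases, of which 6 belonged to SPL14 and 2 to the Salvia SPL1 match. No cluster of the table outside the SBP family carried the phytoene synthase domain. The table lists regulators only, so it cannot show whether phytoene synthase also stands on clusters of its own. The 4 that the KEGG orthology column of the table also names phytoene synthase (6041 to 6087 bases) summed to 774, 1771 and 1782 CPM in cold and 108, 61.6 and 165 in control, a log2 ratio of 3.69. The 4 without that entry (6387 to 6435 bases) summed to 6399, 5559 and 5362 CPM in cold and 5698, 5747 and 5692 in control, a log2 ratio of 0.015. The first set did not overlap between groups and the second did. Whether these clusters are single transcripts or 2 genes joined in the assembly was not tested. A count per cluster does not say whether reads came from the SBP or the phytoene synthase stretch, so the 2 cannot be told apart in these values.

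**Figure D3:**
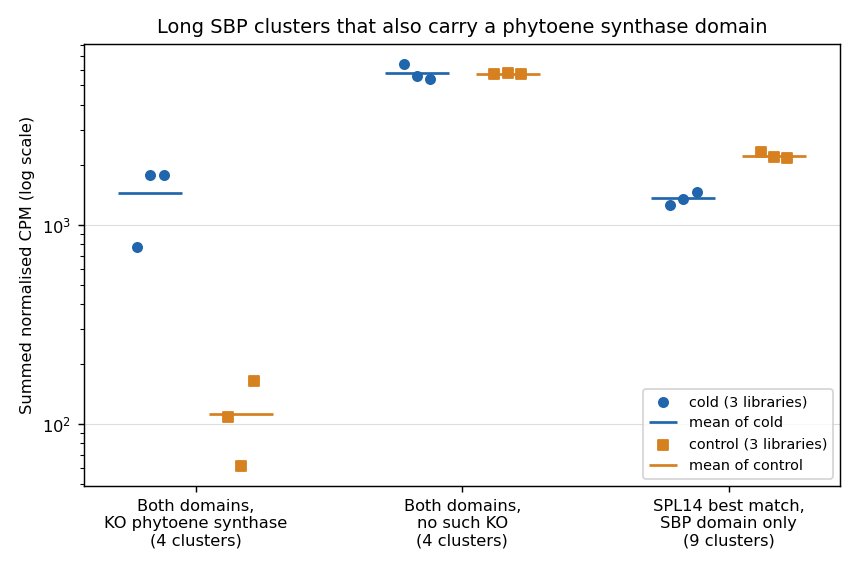
Summed normalised CPM (y axis, log scale) in each cold library (blue circles) and control library (orange squares), with bars at the group means, for 3 sets of SBP clusters. The 4 long clusters named phytoene synthase were higher in cold, and the 4 other long clusters overlapped. The 9 SPL14 clusters without the phytoene synthase domain lay at 1262 to 1461 CPM in cold and 2154 to 2318 in control. They are marked as SBP domain only, though some also carry ankyrin repeats.

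SPL14, named in Arabidopsis for plant architecture and for sensitivity to a fungal toxin, held more reads than any other SBP match, and what happened to it depends on these long clusters. The summed match (XP_011083361.1, 15 clusters) had 8055, 7338 and 8147 CPM in cold and 7635, 7413 and 7433 in control. The groups overlapped, and the log2 fold change of 0.067 was not called (SE 0.04, edgeR adjusted p = 0.179). The direction rests on the scaling and on the unit. It was -0.21 with library totals alone and -0.30 with whole-library totals, both called. RLE factors gave 0.15 and DESeq2 0.15, both called higher. On FPKM, limma gave -0.62 with pseudocount 1 and -0.63 with pseudocount 0.1, both called lower (limma adjusted p = 1.7e-05 and 3.17e-05). The 6 long clusters of SPL14 took 82.3 ± 1.49% of its reads in cold and 72.2 ± 0.88% in control (SD, n = 3 each).

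Without the long clusters SPL14 fell. The 9 clusters without the phytoene synthase domain, some of which carry ankyrin repeats beside the SBP domain, were then the whole match. They had 1317, 1409 and 1526 CPM in cold and 2157, 2053 and 2001 in control when all matches were fitted without the long clusters. The log2 fold change was -0.55 (SE 0.06, edgeR adjusted p = 6.27e-05), in a fit added after the values were seen. Cluster-14918.82883, of 3351 bases, fell by 0.76 on the log2 scale. Cluster-14918.118507 (log2 fold change 0.10), Cluster-14918.103667 (0.66) and Cluster-14918.103666 (-0.26), all above 1400 bases, were not called. Of the 5 clusters under 1400 bases, a limit not set beforehand, 4 were lower, where 23.6% of all clusters tested were. Among these were Cluster-14918.103668 (-2.13), Cluster-14918.129864 (-1.93) and Cluster-14918.127770 (-1.69). The last of the 4, Cluster-14918.118508, had a log2 fold change of -1.45. The remaining short cluster, Cluster-14918.129863, went the other way without a call. It had 23.2, 19.8 and 40.1 CPM in cold and 10.4, 8.33 and 12.5 in control. Its log2 fold change was 1.38 (edgeR adjusted p = 0.0707). Cluster-14918.118508, Cluster-14918.129863, Cluster-14918.82883, Cluster-14918.101461, Cluster-14918.118507, Cluster-14918.103667 and Cluster-14918.103666 were chosen to be named after their values were seen. The 2 most abundant long clusters, Cluster-14918.103931 with 4211, 3720 and 3238 CPM in cold and 3832, 3759 and 4200 in control, and Cluster-14918.101461 with 2150, 1796 and 2043 CPM in cold and 1763, 1951 and 1415 in control, were not called. The long Cluster-14918.103930 had 67.3, 66.6 and 426 CPM in cold and 10.5, 3.42 and 25.3 in control. It was called higher (log2 fold change 3.82, SE 1.13, edgeR adjusted p = 0.0375), and lost the call in 4 of the 6 fits with a library left out, with 2.34 and an edgeR adjusted p of 0.099 without cold replicate 3.

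The copper regulator SPL7 had the most clusters, 27, on 5 best matches, with small changes in the summed level of its 2 most abundant matches. The match XP_011071504.1 had 561, 605 and 544 CPM in cold and 730, 739 and 632 in control, a log2 fold change of -0.30 (SE 0.08, edgeR adjusted p = 0.00946). Its leading model, Cluster-14918.110313, lay between 326 and 447 CPM in all libraries without a call, and its share of the match was 72.0 ± 5.38% in cold and 51.9 ± 3.42% in control. One model was called, Cluster-14918.157919, at 18.02, 16.3 and 18.9 CPM in cold and 82.7, 53.3 and 100.7 in control (log2 fold change -2.14, edgeR adjusted p = 0.00531).

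The match XP_011090876.1 kept nearly the same sum while its reads lay on other transcript models. The sum was 577, 595 and 526 CPM in cold and 622, 622 and 586 in control, which overlapped and was not called (log2 fold change -0.11, SE 0.06, edgeR adjusted p = 0.152). It was called lower with library totals alone (-0.39) and with whole-library totals (-0.48). Of its 11 clusters 3 had no read in any cold library and together held 50.7%, 66.1% and 58.7% of the reads of the match in control replicates 1, 2 and 3. Cluster-14918.76823 had 156, 259 and 229 CPM in control, so that it was at least 149-fold lower in cold (at least 96.3-fold to 169-fold with single libraries left out). Cluster-14918.139678 was at least 75.3-fold and Cluster-14918.57161 at least 39.6-fold lower, and leaving out single libraries took these bounds down to 48.7 and 25.6. All were called (edgeR adjusted p = 0.000773, 0.00129 and 0.00548).

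Other models of this SPL7 match were higher in cold or moved between libraries of a group. Cluster-14918.76822 had 109, 38.1 and 58.2 CPM in cold and 3.21, 4.27 and 9.05 in control (log2 fold change 3.62, SE 0.68, edgeR adjusted p = 0.0076). Cluster-14918.61468 was not tested, with 24.0, 60.9 and 0 counts in cold and none in control. The leading model in cold, Cluster-14918.158908, had 199, 51.2 and 237 CPM in cold and 124, 127 and 112 in control and overlapped. Of the 11 models 5 were at 0 in some but not all cold libraries and 2 in some but not all control libraries, so a 0 in a single library was common here. How the counting assigned reads among the models of this match was not tested.

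**Figure D4:**
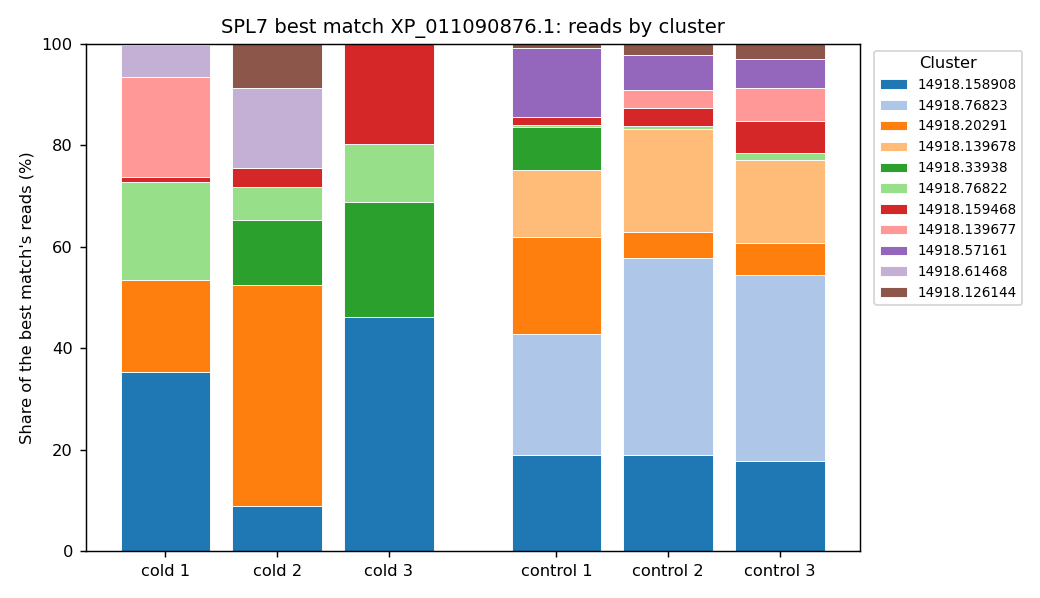
Share of the reads of the SPL7 best match XP_011090876.1 (y axis, percent) on each of its 11 clusters, in 3 cold libraries (left) and 3 control libraries (right). Cluster-14918.76823, Cluster-14918.139678 and Cluster-14918.57161 (the legend leaves out the word) are absent from the cold bars and make up 50.7% to 66.1% of the control bars.

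The monkeyflower SPL7 matches were weakly expressed and varied between the libraries of a group. XP_012841134.1 had 14.7, 0.69 and 0.475 CPM in cold and 31.4, 51.9 and 40.4 in control (log2 fold change -3.01, SE 1.06, edgeR adjusted p = 0.033). The groups did not overlap, but the call was lost in 5 of the 6 fits with a library left out, with adjusted p-values up to 0.0967. Cold replicate 1 holds most of its cold reads. The fit without that library kept the call (edgeR adjusted p = 0.000505). Cold replicates 2 and 3 had 0.45 and 0.34 counts, which leave no count after rounding. The log2 fold change of -8.38 in that fit is therefore not a measured size. XP_012841139.1 had 107, 30.8 and 103 CPM in cold and 32.8, 21.0 and 83.1 in control and was not called (log2 fold change 0.81, SE 0.60).

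Among the weaker members SPL8 and SPL17 fell. SPL8, which shapes anthers and gibberellin response in Arabidopsis, had 16.1, 24.1 and 26.5 CPM in cold and 65.2, 90.5 and 78.1 in control for XP_011090046.1 (log2 fold change -1.78, SE 0.27, edgeR adjusted p = 0.000536). Its model Cluster-14918.165361 had 3.78, 7 and 4.09 CPM in cold and 49.4, 65.6 and 56.5 in control (log2 fold change -3.39, edgeR adjusted p = 0.00193). SPL17, a rice name for a panicle regulator, had only 3, 2 and 3 counts in cold and 32.0, 45.0 and 42.0 in control for XP_011078845.1. The ratio of cold to control was 0.122 with a 95% counting interval of 0.0516 to 0.249 (edgeR log2 fold change -2.99, adjusted p = 0.000312).

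SPL3 of sesame, SPL9 and SPL16 showed smaller differences. The sesame SPL3 match XP_011071232.1, nearest to Arabidopsis SPL2 among curated proteins, had 62.4, 37.2 and 53.1 CPM in cold and 74.9, 125 and 96.7 in control (log2 fold change -0.96, SE 0.27, edgeR adjusted p = 0.0139). The call was lost without control replicate 2 (adjusted p = 0.0618). SPL9, the miR156 target best known in Arabidopsis for leaf phase change, had 57.2, 67.8 and 61.4 CPM in cold and 67.0, 78.9 and 71.0 in control for XP_011075166.1. The groups overlapped slightly and the match was not called (log2 fold change -0.22, SE 0.18, edgeR adjusted p = 0.31). It was called lower with library totals alone (-0.50, adjusted p = 0.0376) and with whole-library totals (-0.58, adjusted p = 0.0196). SPL16, a rice name for a grain width regulator, had 48.7, 41.4 and 53.1 CPM in cold and 47.0, 32.3 and 41.2 in control for XP_009621034.1, with overlap and no call (log2 fold change 0.25, SE 0.27).

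**Figure D5:**
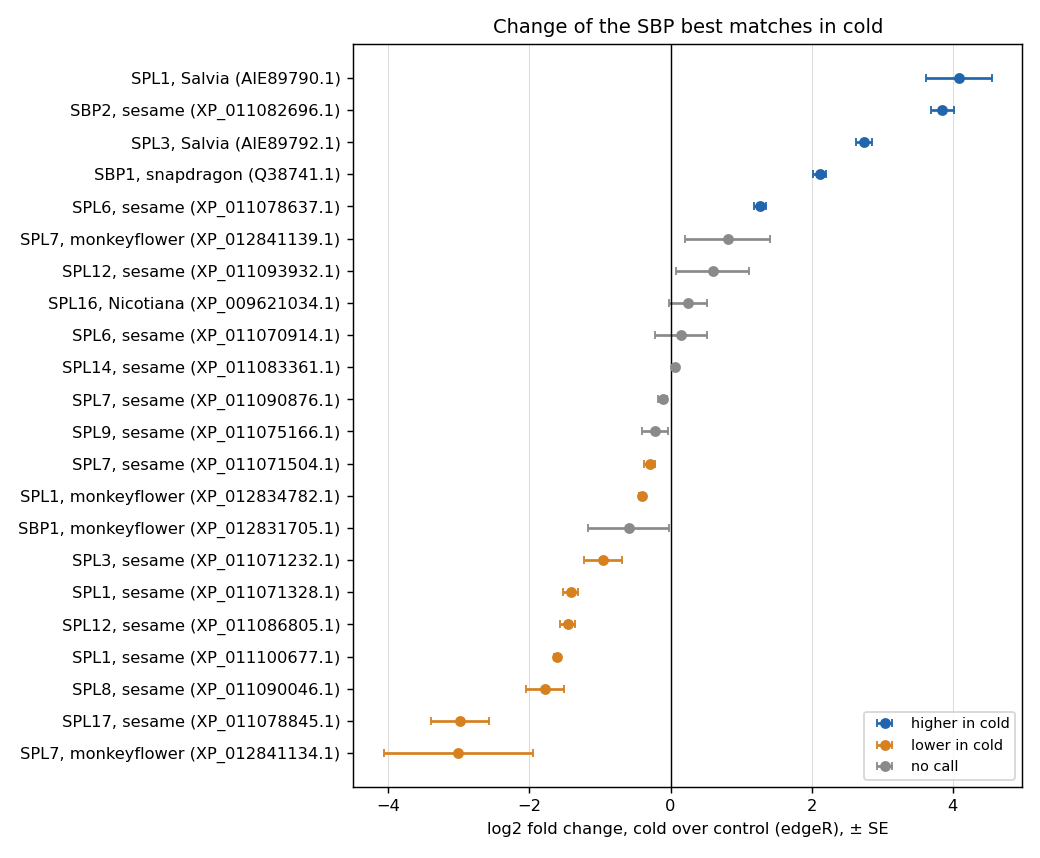
The log2 fold change of cold over control with its SE (x axis) for the 22 SBP best matches tested, in blue where higher, orange where lower and grey where not called. The 5 matches that rose lie between 1.27 and 4.09, and the 9 that fell lie between -3.01 and -0.30.

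The members that could not be tested held few reads. The 56 clusters not tested carried 2.01% of all SBP counts, and 4 clusters had no read in any library. At the level of best matches 6 entries were not tested. The Salvia SPL10 match (AIE89799.1) had 0, 6.27 and 6.42 counts in cold and 14.2, 19.2 and 8.25 in control. The others were a monkeyflower SPL3 match, a sesame SPL7 match, an SBP protein of Medicago without a number, and 2 entries whose annotation does not name an SBP protein, one of them matched to a plastid-lipid-associated protein. The last 5 entries had at most 8.17 counts in any library.

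When members were sorted by what is known of miR156 in Arabidopsis for the number in the match name, the counts were small, and they stand beside 34.6% higher and 37.7% lower over all matches tested. Of 5 tested matches with the number of a miR156 target (SPL3, SPL6 and SPL9), 2 were higher and 1 lower, with a median log2 fold change of 0.15. Of 12 tested matches with the number of a member that miR156 does not target (SPL1, SPL7, SPL8, SPL12 and SPL14), 1 was higher and 7 lower, with a median of -0.35. The 1 that was higher is the Salvia SPL1 match with the phytoene synthase domain. SBP1 and SBP2 have no Arabidopsis number and were left unsorted, as were SPL16 and SPL17. Matches were sorted instead by the nearest curated protein of their cluster with most reads, where that was an Arabidopsis SPL. Then 4 matches counted as targets, of which 1 was higher and 1 lower. As not targeted counted 9, of which 6 were lower and the rest not called, with a median of -0.41. The other 9 tested stayed unsorted, and 4 of them were higher and 2 lower. SPL17 is among these, though its clusters other than the leading one are nearest to Arabidopsis SPL9. The microRNA itself was not measured.

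Genes that act with or after SBP factors were taken from lists by name. AP2-type factors are repressors of flowering that miR172 silences, and in Arabidopsis SPL9 raises miR172. Of 20 such best matches 14 were tested, with 4 higher and 5 lower in cold. An APETALA 2-like match of oil palm (XP_010906558.1) was higher with a log2 fold change of 3.41 (edgeR adjusted p = 0.000903). The sesame APETALA 2-like match XP_011077383.1 was more abundant, with means of 673 CPM in cold and 247 in control (log2 fold change 1.44, edgeR adjusted p = 6.9e-07). The matches named TOE3 (XP_011077024.1, -4.03) and APETALA 2 of monkeyflower (XP_012834705.1, -4.34) were lower (edgeR adjusted p = 2.74e-05 and 0.00352). The monkeyflower match had only 2.58, 0 and 0 counts in cold. TOE3 is labelled isoform X1, and a sesame match labelled RAP2-7 isoform X2 (XP_011077027.1) was not called (log2 fold change -0.0075). Of 8 flowering MADS matches 4 were tested, all named SOC1 or SOC1-like after an integrator of flowering signals, and 2 were higher. The other 2 were not called (XP_011076262.1 with a log2 fold change of -0.24 and XP_011081162.1 with 0.16). SOC1-like XP_011101156.1 had 182, 255 and 192 CPM in cold and 67.9, 122 and 78.6 in control (log2 fold change 1.22, edgeR adjusted p = 0.00221). SOC1 XP_011091217.1 had 144, 172 and 175 CPM in cold and 84.5, 88.9 and 66.5 in control (log2 fold change 1.03, edgeR adjusted p = 0.000638). The single LEAFY match was too low to test, at 1.52 to 6.13 CPM in cold and 0 in control.

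DELLA proteins, which bind SPL factors in Arabidopsis and hold them back, had 5 matches, of which 3 were tested and 1 was lower, GAI1 (XP_011070609.1, log2 fold change -0.65, edgeR adjusted p = 3.4e-06). HY5, a light-signalling bZIP factor, had 3 matches, all tested, of which 1 was lower (XP_011081579.1, log2 fold change -1.44, edgeR adjusted p = 8.93e-05). Of 3 anthocyanin MYB matches 2 were tested, and both were named MYB114-like. One was lower (XP_011079754.1, -0.77) and the other higher (XP_011081404.1, 3.02; edgeR adjusted p = 9.07e-05 and 0.00297). No match bore the name of a single-repeat trichome MYB. These counts stand beside the 34.6% higher and 37.7% lower over all matches.

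The size and the sign of the difference in the family as a whole depend on the scaling. The summed level of all 119 clusters was 13354 ± 93.2 CPM in cold and 13828 ± 70.6 in control (SD, n = 3 each), a log2 ratio of -0.050. The groups did not overlap, and the exact two-sided permutation test gave p = 0.1, the smallest that 20 splits of 6 libraries allow. The log2 ratio was -0.20 with library totals alone, -0.29 with whole-library totals and -0.14 for summed FPKM, each without overlap and with the same p, and 0.019 with RLE factors (p = 0.5, same exact test). The clusters with a phytoene synthase domain held 53.4% to 54.6% of SBP counts in cold and 41.8% to 42.6% in control. The 111 clusters without it summed to 6138 ± 82.4 CPM in cold and 8004 ± 95.6 in control, a log2 ratio of -0.38 with the same smallest p of 0.1 in the exact permutation test.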

How the data were processed

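The 6 leaf libraries, 3 cold and 3 control, were grouped by their labels. The authors deposited estimated counts per cluster, which are not normalized, and FPKM, which the authors deposited beside them, relates fragments to cluster length and to the depth of the full library. The submitters' notes name Bowtie2 2.0.6 and TopHat2 2.0.12, with no role; for the assembler, the counting program and the strand setting nothing is given in the sources used here. Columns with the authors' own cold over control ratio and its q value were not used. The table has 10251 lines for 9740 clusters, since 492 clusters stand on several lines with equal values and were used once. It carries 5.52% to 5.86% of each library, whose totals, recovered by relating FPKM to counts and lengths, were 13076031 to 14327039 in cold and 16955961 to 20695625 in control.

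Counts were rounded, scaled by TMM and tested with edgeR 4.0.16 (filterByExpr, minimum count 10, condition as only term) in R 4.3.3, over the whole table and with adjustment over all features tested. Clusters and sums by best match were fitted separately, each with its own TMM factors, so CPM of the 2 fits differ slightly; CPM is relative to the reads on the features tested, not to the whole library. SE is the log2 fold change over the root of the F statistic. The biological coefficient of variation was 0.639 for clusters and 0.157 for matches. Replicates differed by more than sampling noise (chi-square per cluster 12.6 to 14.6). Bounds and intervals cover counting error only, at 95%. The test was tried on simulated data.

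Alternatives were a replicate block, each library left out, whole-library totals, library totals alone, RLE factors, DESeq2 1.42.0, limma 3.58.1 on log2(FPKM + 0.1) and log2(FPKM + 1), a stricter filter, no filter, a minimum log2 fold change of 1, a threshold of 0.01 and membership by any annotation. Leaving out clusters with a phytoene synthase domain, and sorting by curated Arabidopsis match, were chosen after seeing the data. Members and lists were chosen with earlier results of these data known. All tested matches are named. The rule for naming single clusters took the one with most reads in a match. Of those called with a mean of at least 1 CPM, it took up to 3 per match and direction. Not all clusters that the rule took are named in the text, and some outside it are. Of the lists, up to 3 called matches per direction are named, with some that were not called. No sequence is printed, and qRT-PCR and physiological data were not analysed here. Other work was done in Python 3.11.15 (scipy 1.17.1, pandas 2.3.3, numpy 2.4.6, matplotlib 3.10.9).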

Additional observations from a re-analysis of the deposited data

How the results depend on the processing

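The counts of SBP clusters and best matches called stayed within 1.5 times their values under every alternative run: 9 to 15 clusters higher and 12 to 21 lower, 4 to 6 matches higher and 6 to 12 lower. DESeq2 called 6 matches higher and 9 lower. With libraries left out, 11 to 13 clusters were higher and 17 to 18 lower, 5 to 6 matches higher and 7 to 9 lower, and the family log2 ratio ran from -0.055 to -0.045. The replicate numbers do not pair the libraries (correlations of -0.0302, -0.0144 and -0.00518 between equal numbers); the replicate block gave 13 clusters higher and 12 lower, 5 matches higher and 7 lower, 640 and 671 clusters of the whole table against 1094 and 1182 without the block, and a family log2 ratio of -0.050 (exact sign-flip p = 0.25, the smallest possible).

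The scale moved the fold changes of all matches. Relative to TMM the median of all matches moved by -0.28 with library totals alone, by -0.36 with whole-library totals, and by -0.26 and -0.40 with limma on log2(FPKM + 1) and log2(FPKM + 0.1), which also change the unit and the test. With whole-library totals 642 matches of the table were higher and 1088 lower, against 795 and 866 in the TMM fit, so the share of higher calls was 37.1% against 47.9%, and for SBP matches 5 were higher and 12 lower. With RLE factors the family log2 ratio was 0.019.

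Directions turned for values near 0, in the order library totals alone, whole-library totals, limma with pseudocounts 1 and 0.1: SPL14 -0.21, -0.30, -0.62 and -0.63, SPL16 -0.026, -0.11, -0.072 and -0.11, the uncalled SPL6 match -0.13, -0.21, -0.10 and -0.21, the SPL7 Cluster-14918.110313 -0.10, -0.19, -0.17 and -0.19, and the SPL1 Cluster-14918.123763 -0.10, -0.19, -0.19 and -0.20. The SPL7 Cluster-14918.158908 turned to -0.0026 and -0.076 under limma, and Cluster-14918.77677 to -0.11 (pseudocount 0.1) and -0.057 (replicate block). With no filter SPL14 was -0.026, Cluster-14918.110313 -0.031 and Cluster-14918.123763 -0.024. Without the phytoene synthase clusters SPL14 was -0.55. With libraries left out, Cluster-14918.103931 ran from -0.17 to 0.015, Cluster-14918.110313 from -0.11 to 0.14 and Cluster-14918.123763 from -0.015 to 0.12. The cause was not tested. The block ended the calls of Cluster-14918.123767, Cluster-14918.103668, Cluster-14918.127770, Cluster-14918.139678 and Cluster-14918.57161 (adjusted p = 0.112, 0.0783, 0.0502, 0.0583 and 0.0897), of the sesame SPL3 match (0.0561) and of the SPL7 match XP_012841134.1 (0.0667).

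The floor of 3 counts stands for 0.209 to 0.229 CPM of the whole library in cold and 0.145 to 0.177 in control, so falls to 0 are less well bounded in the shallower cold libraries.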
